A study of Mus musculus with 10 samples.

Results

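The genes described here are 10 genes of the integrated stress response: the transcription factor genes Atf4, Atf5, Atf3 and Ddit3, the regulators Trib3, Chac1 and Ppp1r15a, and the enzyme genes Asns, Psat1 and Phgdh. They were taken by their symbols from a table of 56691 gene rows, with the endoplasmic reticulum chaperone gene Hspa5 as the reference. The 10 symbols matched 11 rows, because Ddit3 has a second row that was listed at 0 in every library and was not used. RNA was measured by sequencing in epithelium stripped from the esophagus of mice, with 5 wild-type libraries and 5 libraries of the genotype p63CreERT2;Mst1loxp/loxp;Mst2-/-, called knockout below. The labels give no alleles for the wild-type mice beyond their name, and neither group's age, sex or genetic background. Mice of both groups received tamoxifen, at 100 mg/kg, in 3 doses with 2 weeks between them, and RNA was taken after about 8 weeks. The Mst1 allele (gene symbol Stk4) is removed by the recombinase CreERT2, which tamoxifen activates and whose allele is named after p63, a factor of basal cells, whereas the Mst2 allele (Stk3) is missing from every cell of the animal. Whether each library came from a separate mouse is not stated, so all p-values below rest on the variation among libraries, which may be technical. Effects of the Cre allele, of the modified alleles with their surroundings and of strain cannot be told apart from loss of the kinases. Trib3, Chac1 and Hspa5 lie on chromosome 2 with Stk4, and Atf4 lies on chromosome 15 with Stk3, so sequence carried along with the modified alleles may differ there too. The same limit holds for Cebpb on chromosome 2 and for Slc38a2 and Creld2 on chromosome 15, which are named below.

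The integrated stress response starts when a stress kinase phosphorylates the alpha subunit of the translation initiation factor eIF2. Protein synthesis then slows in general, while the mRNA of the transcription factor ATF4 is translated more efficiently through its upstream reading frames, so the level of Atf4 mRNA is not a measure of ATF4 protein. ATF4, often paired with C/EBP factors, raises transcription of genes for amino acid synthesis and uptake, of the cell death factor CHOP (gene Ddit3) and of feedback regulators. Hspa5 encodes BiP, the main chaperone of the endoplasmic reticulum, and is driven mainly by ATF6 and XBP1, which belong to other branches of the unfolded protein response.

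The promoters of these genes were read from RefSeq (GRCm38.p6), as the 250 bases before and 50 bases after each annotated start, and all 11 genes were matched, Atf5 and Psat1 with 2 starts each. A C/EBP-ATF response element, the DNA word read by ATF4 with a C/EBP partner, was searched as TGATGNAA on both strands. It was found in 4 of 10 genes, Atf3, Chac1, Trib3 and Asns, and in 3.97% of 32851 mouse promoters of the same length. The endoplasmic reticulum stress element, searched on both strands as CCAAT and CCACG with any 9 bases between them, was found in Hspa5 and in 0.119% of promoters. Stretches around these words are shown because ATF4 is known to act through the first word and ATF6 through the second, with the searched word in capitals, 5′ to 3′ on the strand of the gene.
Asns (chr6:7693210-7693282, minus strand, bases -73 to -1 from the start): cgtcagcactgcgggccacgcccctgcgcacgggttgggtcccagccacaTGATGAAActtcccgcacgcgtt
Chac1 (chr2:119350999-119351106, plus strand, bases -243 to -136): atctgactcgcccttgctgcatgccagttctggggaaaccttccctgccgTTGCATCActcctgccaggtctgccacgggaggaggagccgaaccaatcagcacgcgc
Atf3 (chr1:191183386-191183493, minus strand, bases -160 to -53): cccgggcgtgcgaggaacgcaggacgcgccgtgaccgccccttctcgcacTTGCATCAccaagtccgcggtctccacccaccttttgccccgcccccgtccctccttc
Trib3 (chr2:152344028-152344057, minus strand, bases 4 to 33, in the transcribed part): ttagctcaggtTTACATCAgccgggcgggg
Hspa5 (chr2:34771975-34772089, plus strand, bases -115 to -1): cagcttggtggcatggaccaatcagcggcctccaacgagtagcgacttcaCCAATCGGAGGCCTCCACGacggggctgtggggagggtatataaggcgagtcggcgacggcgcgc
In Chac1, Atf3 and Trib3 the element lies on the opposite strand and reads in reverse complement. Ppp1r15a held a cyclic AMP response element, TGACGTCA, which 1.79% of promoters hold, and 5 of 10 genes (Atf4, Atf5, Ddit3, Psat1 and Phgdh) held none of the 3 words in this window. A match is only the presence of these letters, and no binding was measured here.

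The libraries held 13065000 to 16440000 fragments by an estimate from the FPKM steps of short single-exon genes. FPKM is the number of fragments per kilobase of gene model and per 1000000 fragments of the library, so levels can be compared between genes. The 8 markers of esophageal epithelium (Krt4, Krt13, Krt5, Krt14, Trp63, Sox2, Dsg3 and Dsc2) were all tested and summed to 65029 to 70444 FPKM in wild type, against 62428 to 68821 FPKM for knockout, with Trp63 called lower and the other 7 not called. Trp63 encodes p63, after which the CreERT2 allele is named, so an effect of that allele on Trp63 cannot be told apart from loss of the kinases. The 6 markers of muscle and 4 of endothelium summed to at most 0.64 FPKM, and 6 immune markers to at most 5.07 FPKM. The 6 fibroblast markers summed to 4.44 to 13.6 FPKM in wild type, against 0.07 to 1.13 FPKM for knockout, nearly all of it Dcn, which fell (8.59 ± 3.93 against 0.308 ± 0.459 FPKM, adjusted p = 8.62e-05 by limma). Dcn was the only 1 of the 6 tested, and it passed the filter of at least 1 FPKM in at least 5 libraries through wild type. Passing in that way favours a fall, so this p-value is description only. The part of stromal RNA in the results below was not tested. Des, Col1a2, Cdh5 and Kdr were listed at 0 in every library. The targeted gene Stk3 was at 2.62 ± 0.521 FPKM in wild type, against 0.134 ± 0.0862 FPKM for knockout (SD, n = 5 and 5), as the labels state, and Stk4 at 19.3 ± 2.41 and 15.6 ± 2.00 FPKM, which is no check of a deletion of single exons. In bulk tissue, fewer cells of a type and less RNA per cell cannot be told apart.

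Of the 10 genes, Asns and Psat1 rose in knockout, Trib3 fell, and Atf4, Atf5, Atf3, Ddit3, Chac1, Phgdh and Ppp1r15a did not pass the test. Each gene was tested with limma on log2(FPKM + 1), with Benjamini-Hochberg adjustment over 11386 genes that had at least 1 FPKM in at least 5 libraries, and all 10 passed this filter. A gene counted as called at an adjusted p under 0.05, and 12.9% of tested genes were called, 7.9% as higher and 4.96% as lower in knockout. The 2 called as higher and the 1 called as lower are also the genes of this set whose groups did not overlap, which held for 10.5% of tested genes, 6.62% with knockout higher and 3.88% with knockout lower. The median log2 fold change of the 10 genes was 0.10, beside 0.06 over all tested genes.

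**Figure D1:**
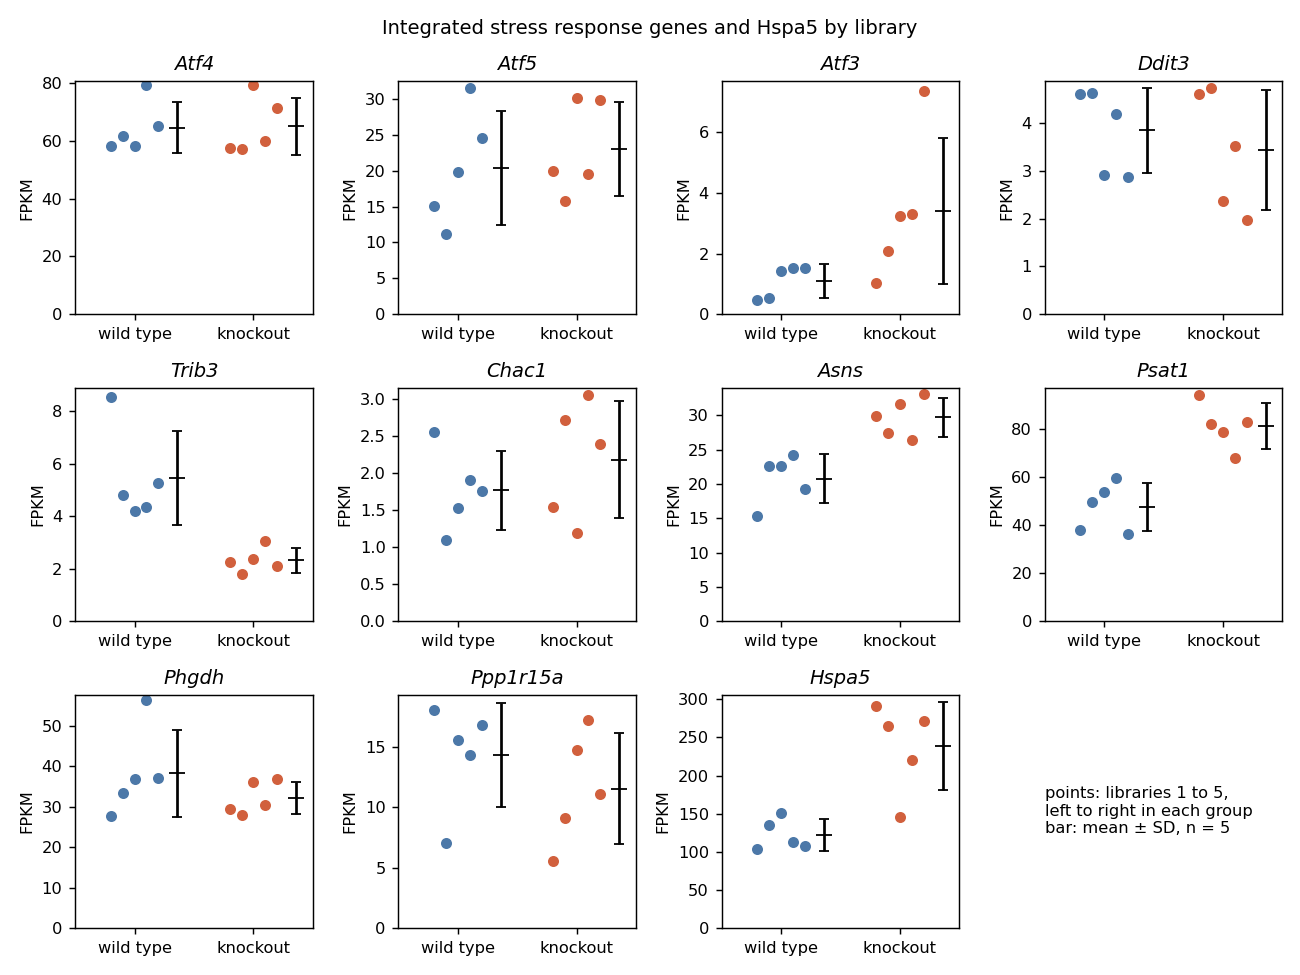
FPKM of the 10 genes and of Hspa5 in each library (points, libraries 1 to 5 from left to right in each group), with mean ± SD (n = 5) beside them; every axis starts at 0. Asns and Psat1 are higher and Trib3 lower in all knockout libraries than in any wild-type library, while the other genes overlap between the groups.

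Atf4 encodes the factor that carries the response from translation to transcription. Its mRNA stood at 58.1, 61.7, 58.2, 79.45 and 65.0 FPKM in wild type 1 to 5 and at 57.4, 57.2, 79.3, 59.9 and 71.2 FPKM in knockout 1 to 5. The groups covered nearly the same range, with wild type 4 and knockout 3 as the highest library of each. The means were 64.5 ± 8.83 and 65.0 ± 9.84 FPKM (± SD of 5 libraries each). The log2 fold change was 0.01 with a 95% interval of -0.27 to 0.29 (limma adjusted p = 0.975). Its sign turned negative after median-ratio scaling (-0.06), after quantile normalization (-0.12), with a clock covariate (-0.05) and without single libraries, down to -0.07 without knockout 3.

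Atf5 encodes a related factor whose mRNA is also translated under eIF2 phosphorylation. It stood at 15.1, 11.2, 19.8, 31.45 and 24.5 FPKM in wild-type libraries 1 to 5, whereas knockout libraries 1 to 5 had 19.97, 15.7, 30.2, 19.6 and 29.8 FPKM. The groups overlapped almost fully, and the highest libraries were again wild type 4 and knockout 3. The log2 fold change was 0.21 with an interval of -0.37 to 0.78 (limma adjusted p = 0.638). Exons of Atf5 overlap those of Nup62 on the opposite strand, at 12.2 to 18.7 FPKM, and the use of strand in counting is not given in the sources used here. A share of 0.028 of the 31-base sequences of Atf5 occurs in other genes.

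Atf3 encodes a factor that ATF4 induces and that is also an immediate early gene, one switched on within minutes by many stimuli. It was the least abundant of the 10 in wild type, at 0.46, 0.53, 1.42, 1.54 and 1.52 FPKM, against 1.03, 2.10, 3.25, 3.30 and 7.34 FPKM in knockout. Knockout 1 lay within the wild-type range and the other 4 knockout libraries above it. The means were 1.09 ± 0.549 and 3.40 ± 2.39 FPKM (± SD of 5 libraries each), and the log2 fold change of 0.96 (SE 0.33) missed the threshold (limma adjusted p = 0.0787, unadjusted p = 0.0142). Without knockout 1 it passed, with a log2 fold change of 1.20 and an adjusted p of 0.0259. The estimated fragments behind these values were 15 to 238 in a library. Among 12 tested immediate early genes, 5 rose (Ier3, Zfp36, Junb, Fos and Egr1) and none fell, where 7.9% of all tested genes were called higher and 4.96% lower. The 15 genes of that list summed to 388 to 478 FPKM in wild type, against 444 to 828 FPKM for knockout. Fos rose from 3.26 ± 1.31 to 11.6 ± 6.61 FPKM (limma adjusted p = 0.0305), and knockout 2, 3 and 5 were its highest libraries, at 20.2, 11.8 and 15.6 FPKM. Its call ended without wild type 1, 3 or 5 or knockout 2, 3 or 5 (adjusted p 0.0524 to 0.0779). Ier3 rose from 51.8 ± 10.8 to 106 ± 24.7 FPKM and passed without each library in turn. Zfp36 lost its call without wild type 5 or knockout 5, and Junb without wild type 1 or 5 or knockout 2, 3 or 5. The calls of Fos, Zfp36 and Junb also ended with no filter and with the clock covariate (0.0522 to 0.0741), and that of Junb under either scaling. The part of this immediate early rise in the Atf3 values was not tested.

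Ddit3 encodes CHOP, the factor tied to cell death in prolonged stress. It was low in both groups, at 4.61, 4.62, 2.92, 4.19 and 2.88 FPKM in wild-type libraries 1 to 5, whereas knockout libraries 1 to 5 had 4.60, 4.74, 2.36, 3.51 and 1.98 FPKM. Each group held libraries near 4.6 FPKM and libraries under 3 FPKM, and the groups overlapped. The log2 fold change was -0.16 with an interval of -0.59 to 0.28 (limma adjusted p = 0.641). Ddit3 shares exon sequence with Mars1, a methionyl-tRNA synthetase gene on the opposite strand at 11.0 to 20.3 FPKM. Reads of the shared part cannot be told apart unless strand was used, but that part is small. A share of 0.068 of the 31-base sequences of Ddit3 occurs in other genes, above all in its unused second row (0.044).

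Within each genotype, the level of Ddit3 went with that of Dbp, a clock output gene that swings with the time of day. The 5 libraries with the highest Dbp, wild type 1, 2 and 4 and knockout 1 and 2, had 8.45 to 22.6 FPKM of it and the other 5 had 0.38 to 1.73 FPKM. The same 5 libraries had the highest Ddit3, at 4.19 to 4.74 FPKM against 1.98 to 3.51 FPKM. No other gene of the set shared more than 3 of its 5 highest libraries with Dbp. With the genotypes pooled, Atf3 was at 0.46 to 2.10 FPKM in the high-Dbp libraries and 1.42 to 7.34 FPKM in the others. Within wild type the 2 sets overlapped for Atf3, at 0.46, 0.53 and 1.54 FPKM against 1.42 and 1.52 FPKM. In knockout they did not, at 1.03 and 2.10 FPKM against 3.25, 3.30 and 7.34 FPKM. These patterns with Dbp were picked after the values were seen and are given with no test. Dbp itself did not differ between the genotypes past the threshold (10.8 ± 9.29 against 4.95 ± 6.33 FPKM, limma adjusted p = 0.440). The clock covariate was the mean log2(FPKM + 1) of Dbp, Nr1d1, Per3 and Tef. None of these 4 genes passed, but all were lower in knockout (median log2 fold change -0.97). The covariate was 2.13, 2.23 and 1.48 in knockout 3, 4 and 5, below the lowest wild-type library (2.50). In knockout 1 and 2 it was 4.08 and 3.76. It is therefore partly shared with genotype, and a fit with it cannot fully separate them. With this covariate, the log2 fold change of Ddit3 turned to 0.16 (limma adjusted p = 0.399) and that of Atf3 was 0.50 (adjusted p = 0.167).

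**Figure D2:**
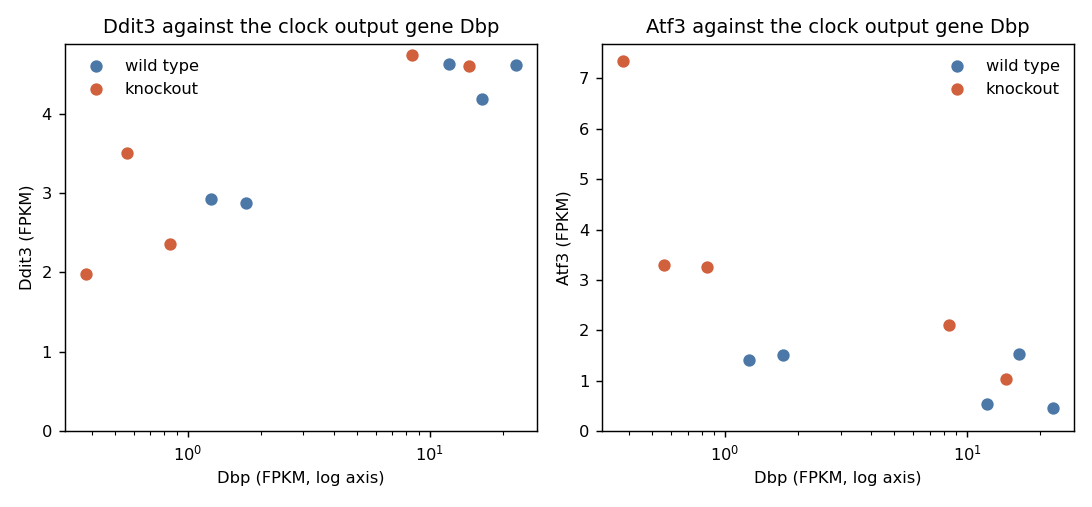
FPKM of Ddit3 (left) and Atf3 (right) against FPKM of Dbp on a log axis, 1 point for each of the 10 libraries, coloured by genotype. The 5 libraries with Dbp above 8 FPKM have Ddit3 at 4.19 to 4.74 FPKM, above all the others. They have Atf3 at no more than 2.10 FPKM, as do the low-Dbp libraries wild type 3 and 5 (1.42 and 1.52 FPKM).

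Trib3 encodes a pseudokinase that ATF4 and CHOP induce and that restrains ATF4 in return. It stood at 8.55, 4.80, 4.21, 4.35 and 5.27 FPKM in wild-type libraries 1 to 5, whereas knockout libraries 1 to 5 had 2.27, 1.80, 2.37, 3.07 and 2.09 FPKM. Every knockout library lay below every wild-type library, and wild type 1 stood above the rest of its group. The mean fell from 5.44 ± 1.79 to 2.32 ± 0.472 FPKM (± SD of 5 libraries each), a change of -57.3%, with a log2 fold change of -0.93 (SE 0.17; adjusted p = 0.00407 by limma). Without wild type 1 the log2 fold change was -0.78 (adjusted p = 0.0038), and the adjusted p stayed under 0.05 without each library in turn, at most 0.0125. With 54 to 274 estimated fragments in a library, Trib3 was the only one of the 10 genes called as lower.

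Chac1 and Ppp1r15a, both induced by ATF4, did not follow Trib3 past the threshold. Chac1, an enzyme that degrades glutathione, stood at 2.55, 1.09, 1.53, 1.90 and 1.75 FPKM in wild-type libraries 1 to 5, whereas knockout libraries 1 to 5 had 1.54, 2.72, 1.19, 3.05 and 2.39 FPKM. The groups overlapped, with 27 to 69 estimated fragments behind each value. Its log2 fold change was 0.18 with an interval of -0.23 to 0.60 (limma adjusted p = 0.551). Ppp1r15a, also called GADD34, brings a phosphatase to eIF2alpha and so ends the response. It stood at 18.1, 7.06, 15.6, 14.4 and 16.8 FPKM in wild-type libraries 1 to 5, whereas knockout libraries 1 to 5 had 5.55, 9.09, 14.8, 17.2 and 11.1 FPKM. Wild type 2 and knockout 1 were the lowest libraries, and the log2 fold change of -0.32 had an interval of -0.97 to 0.34 (limma adjusted p = 0.513).

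Among the enzymes, Psat1 changed most. Psat1 makes phosphoserine from the product of Phgdh on the way from glycolysis to serine. It stood at 37.9, 49.6, 53.8, 59.9 and 36.5 FPKM in wild-type libraries 1 to 5, whereas knockout libraries 1 to 5 had 94.5, 82.4, 78.8, 68.2 and 83.2 FPKM. The lowest knockout library lay above the highest wild-type library. The mean rose from 47.5 ± 10.1 to 81.4 ± 9.44 FPKM (± SD of 5 libraries each); the log2 fold change was 0.78 (SE 0.15; adjusted p = 0.00572 by limma). The adjusted p was at most 0.0173 without single libraries.

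Asns, which makes asparagine from aspartate, rose less. It stood at 15.4, 22.6, 22.6, 24.2 and 19.2 FPKM in wild-type libraries 1 to 5, whereas knockout libraries 1 to 5 had 29.97, 27.4, 31.7, 26.35 and 33.1 FPKM. The groups did not overlap, with a gap between 24.2 and 26.35 FPKM. The mean rose from 20.8 ± 3.53 to 29.7 ± 2.85 FPKM (± SD of 5 libraries each); the log2 fold change was 0.51 (SE 0.13; adjusted p = 0.0236 by limma). The call ended without wild type 5 (adjusted p = 0.0623), knockout 3 (0.0544) or knockout 5 (0.0622). It also ended with the clock covariate (0.0620) and with no filter on low genes (0.0602).

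Phgdh, the enzyme of the first step of serine synthesis, did not rise with Psat1. It stood at 27.7, 33.5, 36.8, 56.3 and 37.1 FPKM in wild-type libraries 1 to 5, whereas knockout libraries 1 to 5 had 29.55, 28.1, 36.2, 30.6 and 36.8 FPKM. All knockout libraries lay inside the wild-type range, whose top was wild type 4. The log2 fold change was -0.21 with an interval of -0.57 to 0.15 (limma adjusted p = 0.425). The ratio of Psat1 to Phgdh within a library was 0.98 to 1.48 among wild-type libraries and 2.17 to 3.20 among those of knockout, with no overlap. Psat1 alone did not overlap either, and no share over other pairs of genes was counted. Phgdh is the 1 gene of the set whose counts are uncertain from copies: a share of 0.563 of its 31-base sequences occurs in another gene, above all in the processed pseudogene Gm7901. Gm7901 was at 6.76 ± 1.93 FPKM in wild type, against 13.8 ± 2.21 FPKM for knockout, with no overlap (log2 fold change 0.95, SE 0.16; adjusted p = 0.00287 by limma). Multiplied by their exon lengths and added, Phgdh and Gm7901 gave 106 ± 29.9 of every 1000000 fragments in wild type and 102 ± 12.9 in knockout, so the groups also overlapped for the sum.

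The steps after Psat1 are in a list of 14 further amino acid and one-carbon enzymes, of which 13 were tested, 2 rose and none fell (median log2 fold change 0.44). Over all tested genes, 7.9% were called higher and 4.96% lower. Psph, the last enzyme of serine synthesis, rose from 3.42 ± 0.693 to 5.77 ± 1.26 FPKM (± SD of 5 libraries each; by limma, adjusted p = 0.0243), with overlapping groups. Shmt1, which turns serine into glycine in the cytosol, rose from 6.50 ± 1.42 to 9.18 ± 0.827 FPKM (limma adjusted p = 0.0439). The call of Psph ended without wild type 1 or 5 or knockout 1, 3 or 5 (adjusted p 0.0546 to 0.0642), and that of Shmt1 without any library except wild type 4 (0.0559 to 0.0942). Both calls ended with no filter (0.0656 and 0.101), and that of Psph with the clock covariate (0.0654). The mitochondrial enzymes of the same route did not pass: Shmt2 was at 18.7 ± 3.81 and 26.1 ± 7.12 FPKM, Mthfd2 at 2.21 ± 0.458 and 3.57 ± 0.930 FPKM, and Mthfd1l at 1.04 ± 0.650 and 3.97 ± 2.56 FPKM (limma adjusted p = 0.138, 0.0551 and 0.0522).

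**Figure D3:**
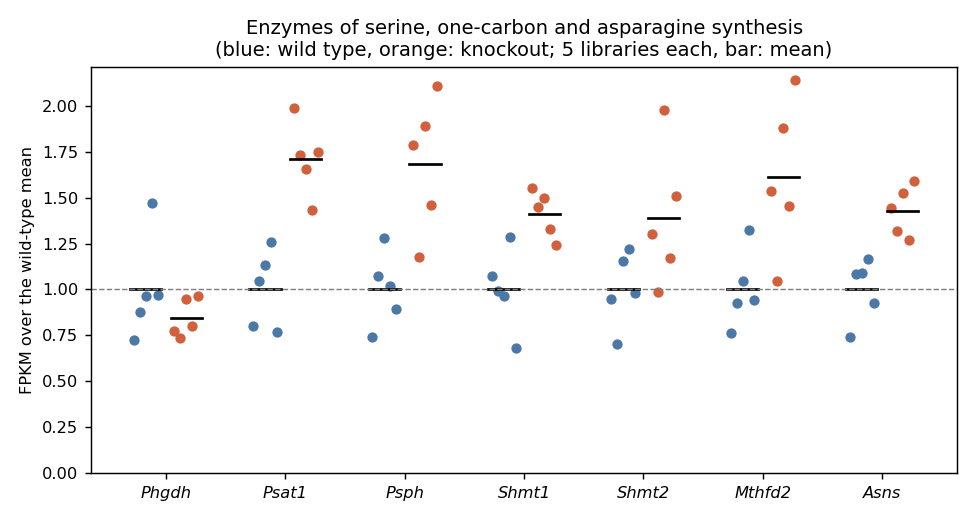
FPKM of enzymes of serine, one-carbon and asparagine synthesis in each library, divided by the gene's wild-type mean (dashed line at 1), with wild type in blue, knockout in orange and bars for group means (n = 5). Phgdh lies below the line in every knockout library, but also in every wild-type library except wild type 4, and its groups overlap. All knockout libraries of Psat1 and Asns lie above every wild-type library.

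Levels of the 10 genes kept most of their order between the genotypes. In wild type Atf4 was highest, followed by Psat1, Phgdh, Asns, Atf5, Ppp1r15a, Trib3, Ddit3, Chac1 and Atf3, and the ranges of neighbours overlapped except between Phgdh and Asns and between Ddit3 and Chac1. In knockout Psat1 (81.4 FPKM) stood before Atf4 (65.0 FPKM), with overlapping ranges, and Trib3 (2.32 FPKM) after Ddit3 (3.44 FPKM) and Atf3 (3.40 FPKM). The spread within a group was widest for Atf3, with a coefficient of variation of 50.2% in wild type and 70.2% in knockout, and narrow for Atf4 (13.7% and 15.1%). Wild type 4 was the highest of its group for 6 of the 10 genes: Atf4, Atf5, Atf3, Asns, Psat1 and Phgdh.

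Hspa5 about doubled in knockout while Atf4 and Ddit3 did not pass the test. Hspa5 stood at 103, 136, 151, 112 and 107 FPKM in wild-type libraries 1 to 5, whereas knockout libraries 1 to 5 had 291, 265, 146, 221 and 271 FPKM. Knockout 3 lay within the wild-type range and the other 4 knockout libraries above it. The mean rose from 122 ± 20.5 to 239 ± 57.7 FPKM (± SD of 5 libraries each); the log2 fold change was 0.94 (SE 0.19; adjusted p = 0.00785 by limma). Without knockout 3 it was 1.10. Within libraries, Atf4 was at 0.385 to 0.708 of the level of Hspa5 in wild-type libraries and at 0.197 to 0.542 of it in those of knockout. Trib3 was at 0.0279 to 0.0827 and 0.0068 to 0.0162 of it, with no overlap, and Ddit3 at 0.0193 to 0.0446 and 0.0073 to 0.0179, also with no overlap. The FPKM of Ddit3 itself overlapped, and each ratio holds the rise of Hspa5. How many of all genes do not overlap in this ratio was not counted. Psat1 was at 0.340 to 0.534 and 0.307 to 0.539 of the level of Hspa5, and the knockout range enclosed that of wild type.

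A fit of all genes relative to Hspa5 of the same library put these contrasts on a common scale. Of the 10 genes, 7 were lower relative to Hspa5 (limma, Benjamini-Hochberg adjusted p under 0.05), none was higher, and Asns, Psat1 and Atf3 did not pass. In this comparison 86.9% of all tested genes were called, 86.3% as lower and 0.597% as higher, because every ratio holds the rise of Hspa5, so the count of 7 is near that background. The same Hspa5 values enter every ratio, so errors are shared between genes, while the fit pools variances as if genes were independent. The p-values of this fit may therefore be too small and its intervals too narrow. Atf4 had a log2 fold change relative to Hspa5 of -0.93 (SE 0.25, adjusted p = 0.00144). Trib3 had -1.87 (SE 0.28, adjusted p = 3.4e-07), Ppp1r15a -1.26, Phgdh -1.15, Ddit3 -1.09, Chac1 -0.75 and Atf5 -0.73. For Psat1 the value was -0.16 with an interval of -0.64 to 0.33 (adjusted p = 0.530) and for Asns -0.43 with an interval of -0.93 to 0.06 (adjusted p = 0.0943). Asns was lower relative to Hspa5 without knockout 3, at -0.62 (adjusted p = 0.00173). The call of Atf5 ended without wild type 3 or 4 or knockout 2 or 5 (adjusted p 0.0563 to 0.0691), and that of Chac1 without wild type 1 (0.0555) or knockout 1 (0.0585). With a pseudocount of 0.1 neither passed (0.0765 for Atf5 and 0.0616 for Chac1), so that 5 genes were lower, and after quantile normalization Atf5 did not (0.0604). With a pseudocount of 5, Asns (0.0462) and Atf3 (0.0361) passed as well, so that 9 genes were lower.

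**Figure D4:**
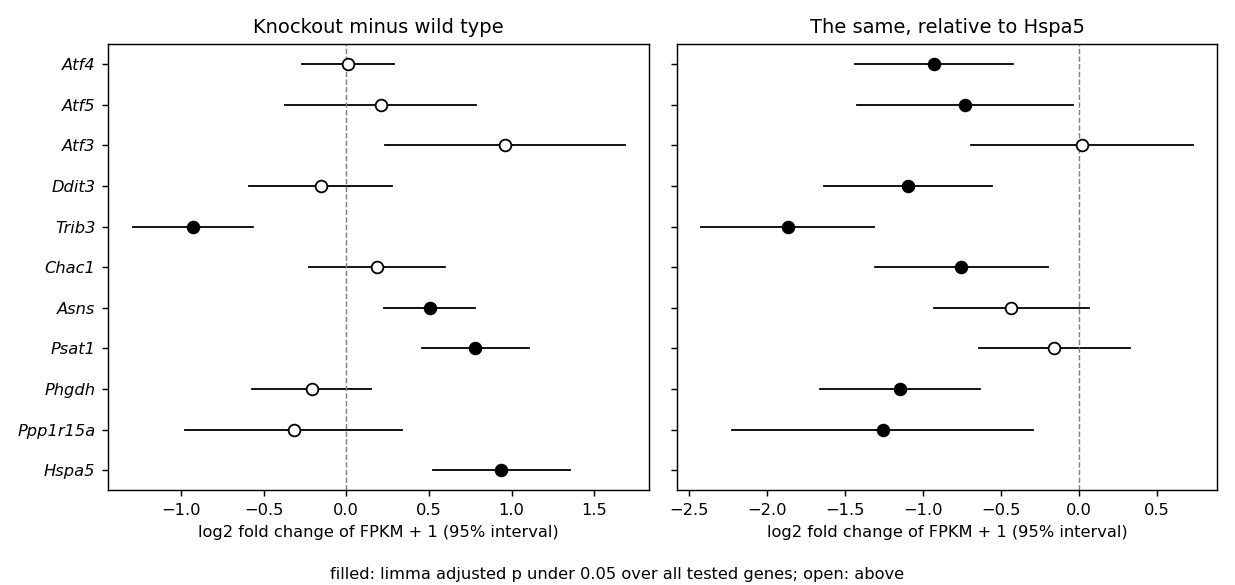
Log2 fold change of FPKM + 1, knockout minus wild type, with its 95% interval, for the 10 genes and Hspa5 (left) and for the 10 genes relative to Hspa5 of the same library (right); filled points had a limma adjusted p under 0.05 over all tested genes. Trib3 is the one filled point left of 0 in the left panel, and in the right panel Psat1, Asns and Atf3 are open.

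The list of eIF2alpha kinases, eIF2 and eIF2B subunits and phosphatase subunits had 20 tested members, of which 3 rose and none fell (median log2 fold change 0.27), where 7.9% of all tested genes were called higher and 4.96% lower. None of the 4 kinases passed: Eif2ak1 (HRI) was at 6.77 ± 0.394 FPKM in wild type and 8.22 ± 1.06 in knockout, Eif2ak2 (PKR) at 5.23 ± 0.730 and 7.93 ± 3.71, Eif2ak3 (PERK, the kinase of the endoplasmic reticulum) at 3.58 ± 0.433 and 3.54 ± 0.327, and Eif2ak4 (GCN2, the amino acid sensor) at 0.996 ± 0.290 and 1.12 ± 0.285 (± SD of 5 libraries each; by limma, adjusted p = 0.123, 0.261, 0.959 and 0.701). Gcn1, which activates GCN2 on the ribosome, rose from 3.75 ± 0.680 to 5.53 ± 0.565 FPKM without overlap (limma adjusted p = 0.0266). Ppp1r15b, the constitutive counterpart of Ppp1r15a, rose from 16.4 ± 2.77 to 24.2 ± 5.19 FPKM (adjusted p = 0.0444) and the eIF2B subunit gene Eif2b3 from 2.66 ± 0.398 to 3.82 ± 0.517 FPKM (adjusted p = 0.0411). The call of Gcn1 ended without wild type 1 or 5 or knockout 1 or 5 (0.0515 to 0.0632), that of Ppp1r15b without wild type 1, 2, 3 or 5 or knockout 3, 4 or 5 (0.0612 to 0.106), and that of Eif2b3 without wild type 1, 3 or 5 or knockout 1, 2, 3 or 5 (0.0712 to 0.103). Ppp1r15b and Eif2b3 also lost their calls under median-ratio scaling (0.0862 and 0.0601), quantile normalization (0.0723 and 0.0536) and the clock covariate (0.119 and 0.0573), and all 3 genes with no filter. Of 6 tested bZIP factors that pair with ATF4 or CHOP, 1 rose and none fell: Cebpb rose from 23.0 ± 6.52 to 36.2 ± 5.68 FPKM (limma adjusted p = 0.0419), a call that ended without wild type 1 or 5 or any knockout library (0.0512 to 0.103), with no filter, under either scaling and with the clock covariate (0.0685 to 0.108).

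Among other ATF4 targets, calls went in both directions, where 7.9% of all tested genes were called higher and 4.96% lower. For the 8 carriers, 1 call each way is near these shares. Of 8 tested amino acid carriers 1 rose and 1 fell: Slc38a2, a carrier of small neutral amino acids, rose from 26.1 ± 3.44 to 37.2 ± 5.88 FPKM (± SD of 5 libraries each; by limma, adjusted p = 0.0284), and the glutamine carrier Slc1a5 fell from 5.84 ± 0.983 to 3.57 ± 0.804 FPKM (adjusted p = 0.0172), a call that ended with the clock covariate. The cystine carrier Slc7a11 was at 10.5 ± 6.11 and 19.9 ± 8.33 FPKM and did not pass (adjusted p = 0.187). Of 13 tested genes of tRNA charging, 3 rose and none fell: Nars (asparagine) rose from 43.7 ± 5.80 to 62.4 ± 9.19 FPKM, Lars (leucine) from 20.1 ± 2.60 to 26.7 ± 2.71 FPKM and Iars (isoleucine) from 15.1 ± 1.53 to 19.6 ± 1.68 FPKM (limma adjusted p = 0.0250, 0.0364 and 0.0328). The median log2 fold change of the 13 genes was 0.26. These calls ended without some libraries: Nars without wild type 1 or 5 or knockout 3 or 5 (0.0587 to 0.0683), Lars and Iars without wild type 1, 3 or 5 or knockout 1, 3 or 5 (0.0506 to 0.0907), and Slc38a2 without wild type 1, 3 or 5 or knockout 1, 2 or 3 (0.0503 to 0.0780). All 3 tRNA charging calls also ended under median-ratio scaling (adjusted p = 0.0643 for Nars, 0.0956 for Lars and 0.0573 for Iars), with the clock covariate and with no filter, and those of Lars and Iars under quantile normalization (0.0685 and 0.0562); the call of Slc38a2 ended with no filter (0.0710).

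The 16 tested stress regulators of the ATF4 and CHOP programme held 4 that rose, 1 that fell and a median log2 fold change of 0.01. Of all tested genes, 7.9% were called higher and 4.96% lower. Eif4ebp1, an inhibitor of cap-dependent translation, rose from 9.63 ± 1.60 to 16.7 ± 2.59 FPKM (± SD of 5 libraries each; by limma, adjusted p = 0.00441). Sesn2, which restrains mTORC1 when leucine is scarce, rose from 4.46 ± 0.938 to 7.60 ± 1.06 FPKM (adjusted p = 0.0107), and Ero1a, an oxidase of the endoplasmic reticulum, from 12.1 ± 1.56 to 17.8 ± 2.05 FPKM (adjusted p = 0.0119). The death receptor gene Tnfrsf10b rose from 0.836 ± 0.172 to 1.49 ± 0.277 FPKM (adjusted p = 0.0303). The autophagy gene Map1lc3b fell from 18.8 ± 1.68 to 12.6 ± 2.34 FPKM (adjusted p = 0.0144). The groups did not overlap for any of these 5 genes, which held for 6.62% of tested genes with knockout higher and 3.88% with knockout lower. These genes were named because they were called, which favours such a gap, so it is no further support. Tnfrsf10b averaged less than the filter level of 1 FPKM in wild type, so the knockout libraries carried it past the filter. Eif4ebp1, Sesn2, Ero1a and Map1lc3b passed without each library in turn, at adjusted p of at most 0.0409. Ddit4, Nupr1 and Herpud1, which are also induced in this programme, had log2 fold changes of -0.07, -0.01 and -0.0038 (adjusted p = 0.887, 0.978 and 0.988).

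Chaperone genes of the endoplasmic reticulum rose with Hspa5. Of 17 tested genes of ATF6 and the endoplasmic reticulum chaperones, 11 rose and none fell (median log2 fold change 0.60), and of 15 genes of the IRE1 and XBP1 branch, 5 rose and none fell (median 0.39). Beside these lists, 7.9% of all tested genes were called higher and 4.96% lower. Creld2 and Manf, targets of the unfolded protein response, rose from 17.4 ± 1.91 to 34.2 ± 8.30 FPKM and from 20.4 ± 2.43 to 37.4 ± 8.08 FPKM (± SD of 5 libraries each; by limma, adjusted p = 0.00368 and 0.00407), with no overlap, and passed without each library. Xbp1 rose from 70.9 ± 10.9 to 97.9 ± 11.0 FPKM (adjusted p = 0.0364), a call that ended without wild type 1, 2 or 5 or knockout 1, 2, 4 or 5 (0.0509 to 0.0885), with no filter, under either scaling and with the clock covariate (0.0816 to 0.106). Among 10 genes of mitochondrial protein stress, 3 rose and 1 fell. The protease subunit gene Clpx fell from 35.5 ± 4.92 to 25.0 ± 1.65 FPKM (adjusted p = 0.0151), and Hspa9, a mitochondrial chaperone, rose from 62.3 ± 8.52 to 86.8 ± 9.14 FPKM (adjusted p = 0.0221), a call that ended without wild type 1 or 5 or knockout 1, 3 or 5 (0.0505 to 0.0630) and with no filter (0.0518). Hspd1 and Hspe1, which also rose, share 0.531 and 0.305 of their 31-base sequences with other genes, and their values are uncertain for that reason. Hspe1 lost its call without any library except wild type 2 or 3 (0.0513 to 0.107), and with no filter, under either scaling and with the clock covariate (0.0562 to 0.103).

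**Figure D5:**
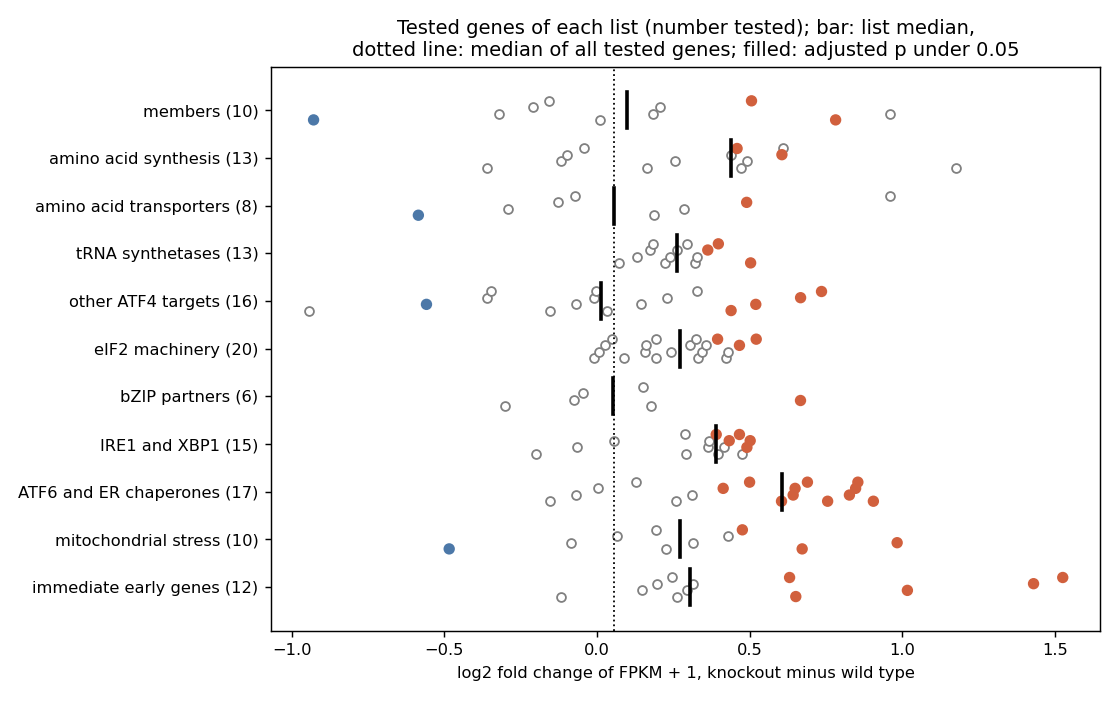
Log2 fold change of FPKM + 1, knockout minus wild type, for each tested gene of the 10 integrated stress response genes (top row, labelled members) and of 10 further lists, with the number tested in brackets, a bar for the list median and a dotted line for the median of all tested genes (0.06). Filled points had a limma adjusted p under 0.05; the list of ATF6 and chaperone genes has 11 filled points to the right of 0, and Trib3 is the filled point to the left in the top row.

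In all, 33 of 118 tested genes in these 9 further pathway lists rose and 3 fell, where 7.9% of all tested genes were called higher and 4.96% lower. The lists were chosen with earlier results of these data known, so this comparison is a description and no test of the pathways. The count of 33 moved with single libraries and with scaling: 14 rose without wild type 1 or without wild type 5, 16 without knockout 1 or without knockout 5, 20 without knockout 3, and 21 after median-ratio scaling or quantile normalization. The count over all tested genes moved too, from 900 called higher to 495 without wild type 1, 436 without wild type 5, 538, 572 and 529 without knockout 1, 3 and 5, and 651 and 685 after the scalings. Higher genes made up 61.4% of all calls as reported, 46.5% after median-ratio scaling and 47.9% after quantile normalization.

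The 5 genes outside the set whose pattern was most like that of Atf4 were in none of the pathway lists. Krt14 is among the epithelial markers named above. Likeness was Pearson's r of log2(FPKM + 1) over the 10 libraries after the mean of each genotype was subtracted. Candidates were tested genes with a mean of at least 5 FPKM, and the 10 members, pseudogenes and predicted gene names were left out. The highest were Nol10 (0.95), Drap1 (0.95), Igfbp3 (0.93), Slc6a14 (0.92) and Krt14 (0.91). For each of them, as for Atf4, wild type 4 was the highest wild-type library and knockout 3 and 5 the highest knockout libraries. Sharing these libraries follows from how the genes were picked and is no further result. Krt14 encodes a keratin of basal cells, and it stood at 1244 FPKM in wild type 4, at 1720 and 1090 FPKM in knockout 3 and 5, and at 417 to 772 FPKM in the other 7 libraries, though a share of 0.282 of its 31-base sequences occurs in other genes. The part of a basal cell share in the Atf4 values was not tested. Among the 10 genes, r with Atf4 was 0.85 for Phgdh, 0.80 for Atf5, 0.58 for Atf3 and 0.57 for Asns, but -0.23 for Trib3, -0.30 for Chac1 and -0.53 for Ddit3, and it was -0.58 for Hspa5. These values describe 10 libraries that share their scaling and are given with no p.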

How the data were processed

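The authors deposited 1 table of FPKM values, 1 column for each library, with Ensembl IDs and symbols per the file headers. The submitters' processing notes name the build mm9 and the tools HTSeq 0.6.1, HISAT2 2.0.1 and cutadapt; neither settings nor the use of strand is given in the sources used here. Depth was estimated as the library total that turns FPKM of genes with 1 exon, at most 1200 bp long, into whole fragments: allowing 0.01 fragments and the rounding of the table, 98.3% to 98.6% came out whole, where 9.2% to 11% would by chance. Lengths and shared 31-base sequences came from GENCODE M21.

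limma 3.58.1 in R 4.3.3 (trend, robust) was fitted on log2(FPKM + 1), which understates changes of low genes, and tested on simulated data; Python 3.11.15, pandas 2.3.3 and matplotlib 3.10.9 were used. The members and lists were chosen with earlier results of these data known. Named were all members, Hspa5, Stk3, Stk4, up to 4 called genes of each list by smallest p (2 where none passed) and the 5 genes most like Atf4; the eIF2alpha kinases, Shmt2, Mthfd2, Mthfd1l, Slc7a11, Ddit4, Nupr1, Herpud1, Tnfrsf10b, Egr1, Dbp, Gm7901, Mars1, Nup62 and Dcn were named after their values were seen. Other settings tried were a pseudocount of 0.1 or of 5, a filter at 5 FPKM or none, median-ratio and quantile scaling, no trend or robust estimation, the replicate number as a block, a clock covariate, and leaving out each library.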

Additional observations from a re-analysis of the deposited data

Results flagged for a closer look

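In 4 of 102 groups of 5 libraries examined, 1 library stood apart from the rest, and chance gives about 1 in 20. Trib3 was at 8.55 FPKM in wild type 1 and at 4.21 to 5.27 FPKM in the other wild-type libraries. Slc1a5 was at 4.97 FPKM in knockout 1, with the rest of the knockout group at 2.90 to 3.37 FPKM. Drap1 was at 37.1 FPKM in wild type 4, against 26.5 to 28.8 FPKM, and Slc6a14 at 8.93 FPKM in wild type 4, against 1.65 to 2.30 FPKM in the other wild-type libraries. Drap1 and Slc6a14 had been picked for likeness to Atf4, whose highest wild-type library was also wild type 4.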

How the results depend on the processing

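Trib3, Psat1 and Hspa5 kept their direction and their call in every alternative in which they were tested; a filter at 5 FPKM left out Trib3, Atf3, Ddit3 and Chac1, so that 0 of the 10 genes were then called lower and 4 were lower relative to Hspa5. Of the 10 genes, 1 was called higher with no filter or with the clock covariate, and 1 to 3 when single libraries were left out. All tested genes called higher numbered 511 with no filter and 436 to 1091 without single libraries, and those called lower 329 with the filter at 5 FPKM and 357 to 679 without single libraries (363 and 357 without wild type 1 and 5, and 369 without knockout 5). In the pathway lists 15 genes rose with no filter, 21 with either scaling, and 14 to 35 without single libraries. Signs turned only for values that had not passed: Atf4 (-0.0595, -0.12 and -0.0491 after median-ratio scaling, quantile normalization and the clock covariate, and -0.065 to 0.0855 without single libraries), Ddit3 (0.16), Krt14 (-0.0662) and, relative to Hspa5, Atf3 (-0.47) with the clock covariate, Drap1 after quantile normalization (-0.0012), and Atf3 relative to Hspa5 with a pseudocount of 5 (-0.49, adjusted p = 0.0361) and without single libraries (-0.19 to 0.34). The cause was not tested. Of 35 called genes named by the rule, 16 kept their call in every alternative and 19 lost it in at least 1. Libraries of the same number did not deviate together in every pair (r -0.24 to 0.42), which cannot settle whether the numbers mark pairs. With the replicate number as a block, 773 genes were higher and 551 lower by limma, and Atf3 passed (adjusted p = 0.0104). In that fit Eif2b3, Iars, Lars, Serp1, Xbp1, Hspa9 and Junb lost their calls (0.0548 to 0.0791). Values of Atf3 and Chac1 rest on few fragments.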
